A study of Mus musculus with 24 samples.

Results

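The genes described here are the 142 genes whose transcripts were almost lost when ID8 Trp53-/- ovarian cancer cells were treated with AU-15330, both in otherwise untreated cells and in cells that also received cisplatin. They were selected on their levels, among 25229 genes in all, by a rule that used the group means of CPM, the reads of a gene scaled to a common library total. A gene had to average at least 5 CPM with DMSO and with cisplatin, to average at most 1/16 of the DMSO level with AU-15330, and to average at most 1/16 of the cisplatin level with the combination. Symbols that begin with Hox, Dlx, Col, Itg, Lam or Mmp were left out, which removed 6 genes of the 148 that met the other conditions. The falls with AU-15330 are therefore a property of the choice. They are given below as a description, and no test was made of them.

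ID8 is a mouse ovarian cancer line that arose from ovarian surface epithelium of C57BL/6 mice, and in the cells used here the P53 gene was knocked out in every group, controls included. The 4 groups received DMSO (the solvent), AU-15330 at 2.5 μM, cisplatin at 750 nM, or both drugs, for 6 days, and each held 6 replicates. The cisplatin concentration is that of the sample labels, and the study's methods give another one for these cells. Cisplatin is a platinum drug that crosslinks DNA and was used in the study to drive cells into senescence. Polyadenylated RNA was sequenced in bulk, and whether the replicates were separate cultures is not stated in the sources used here, so that p-values measure the spread between these samples. AU-15330 acts on proteins, so mRNA cannot check the treatment labels: the Smarca4 transcript averaged 230.4 CPM with DMSO and 398.9 CPM with AU-15330, and Smarca2 averaged 414.0 and 292.6 CPM.

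SMARCA4 and SMARCA2 are the alternative motor subunits of SWI/SNF, a complex that spends ATP to slide and evict nucleosomes and so keeps enhancers and promoters open to transcription factors. The small molecule AU-15330 belongs to the PROTAC class and degrades both by recruiting a ubiquitin ligase to them. SWI/SNF is known for its role at enhancers of genes that give a cell type its identity, while many genes needed by every cell are transcribed from promoters rich in CpG dinucleotides.

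Libraries held 17592588 to 25260009 reads counted on genes. The 142 genes together took 1.88 to 2.66% of those reads in the DMSO libraries and 1.57 to 1.96% in the cisplatin libraries. They took 0.0243 to 0.0305% in the AU-15330 libraries and 0.0362 to 0.0595% in the combination libraries. Markers of the lineage were present: with DMSO, Wt1 averaged 796.3 CPM, Krt18 608.2 CPM, Msln 494.5 CPM and Gata4 471.6 CPM, while 5 of the 29 ovarian surface and mesothelial markers in the table, among them Calb2 and Tcf21, were at 0 in 20 or more of the 24 libraries. The summed level of those 29 markers ran from 4314 to 6285 CPM with DMSO and from 2710 to 3001 CPM with AU-15330. Of the 10 immune cell markers only Cd68 reached 1 CPM in any group, and their summed level was 6.65 to 17.8 CPM with DMSO and 17.8 to 54.4 CPM with AU-15330. Ptprc, the pan-leukocyte marker, stayed under 0.1 CPM in every group mean. Of the 7 endothelial markers only Pecam1 reached 1 CPM, with a list sum of 2.61 to 4.09 CPM with DMSO, and Cdh5, Kdr, Emcn and Cldn5 were at or near 0 throughout. The 7 fibroblast markers summed to 17.8 to 40.5 CPM with DMSO, 144.0 to 228.7 CPM with cisplatin and 46.9 to 73.1 CPM with AU-15330, nearly all of it Dcn. In bulk RNA, fewer cells of a type and less RNA per cell cannot be told apart.

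Of the 9834 genes that met the level condition and were not left out by symbol, 222 (2.26%) were at 1/16 or less with AU-15330 and 150 (1.53%) at 1/16 or less with the combination. The 142 genes are the overlap that the rule fixes; another 80 met the AU-15330 limit alone and 8 the combination limit alone. In the opposite direction, with the same level condition set on the groups with AU-15330, 10 genes of 9869 were raised 16-fold or more in both backgrounds. The genes nearest the limit on the inside were Adamts7 (16.2-fold lower with AU-15330 and 18.1-fold lower with the combination), Mylk (57.9 and 16.3), Igsf9 (16.4 and 27.9) and Fmnl1 (17.2 and 16.6). Among the genes just outside were Tspan32 (37.2 and 15.7), Prss35 (15.6 and 29.8) and Ctla2a (20.8 and 15.1).

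Control levels of the 142 genes spanned a wide range. The lowest group mean with DMSO was 5.16 CPM, the median 31.998 CPM and the highest 4603 CPM, and 33 genes averaged 100 CPM or more. With AU-15330 the lowest, median and highest means were 0.0071, 0.297 and 47.4 CPM, and with the combination they were 0.0151, 0.660 and 70.0 CPM. The fall with AU-15330 was 16.2-fold at its smallest, 87.9-fold at the median and 3679-fold at its largest, and the fall with the combination was 16.3-fold, 42.1-fold and 1308-fold. In 89 genes the fall with AU-15330 was at least 64-fold and in 38 at least 256-fold, against 54 and 17 for the combination. For all 142 genes the lowest DMSO library lay above the highest AU-15330 library, and the lowest cisplatin library above the highest combination library, which a 16-fold limit on the means makes likely.

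**Figure D1:**
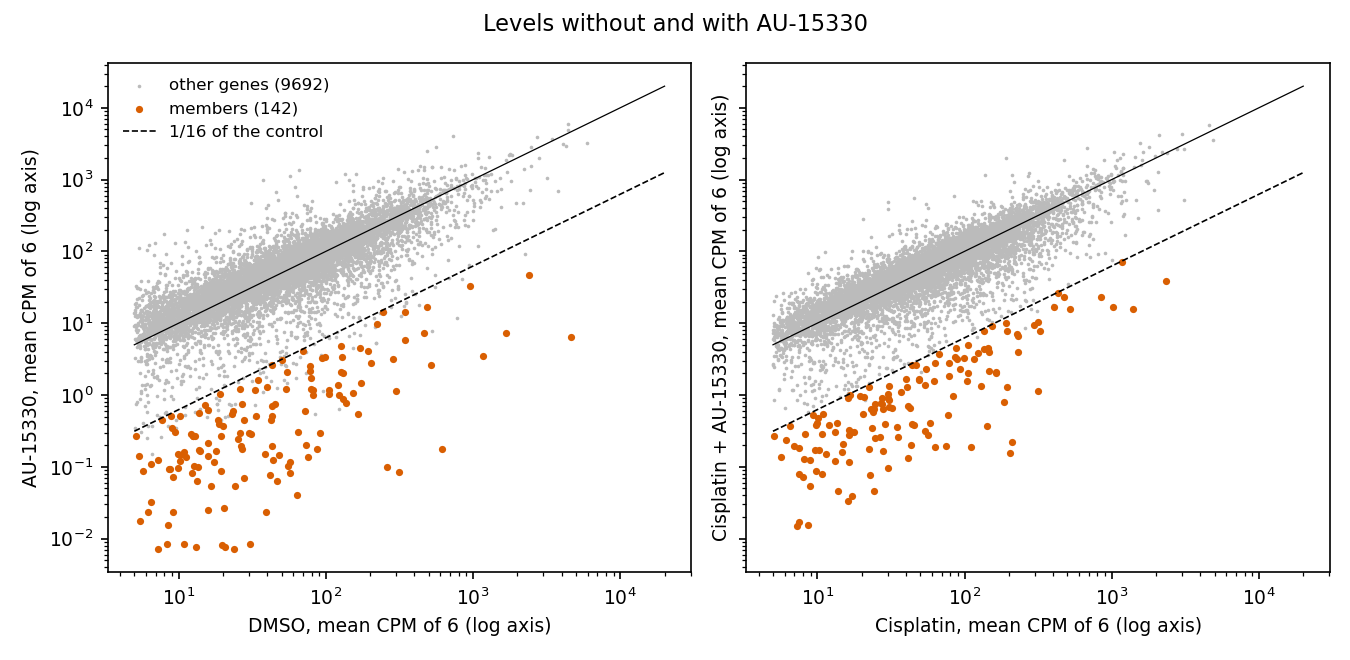
Mean CPM of 6 libraries in the control (horizontal, log axis) and with AU-15330 added (vertical, log axis) for 9834 genes; the 142 genes are in orange, the solid line marks equal levels and the dashed line 1/16 of the control. Left, AU-15330 against DMSO; right, the combination against cisplatin; means under 0.005 CPM are drawn at 0.005, and gray points under a dashed line met the limit in that panel only.

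Few reads of the 142 transcripts were left after treatment. A total of 97 averaged 1 CPM or less with AU-15330, 86 did so with the combination, and 83 did so with both. No gene was at 0 in all 6 libraries of a group. An AU-15330 library had 0 reads for 14 to 25 of the genes and a combination library for 4 to 10, whereas every DMSO and cisplatin library had reads for all 142. In 15 genes the 6 AU-15330 libraries together held 3 reads or fewer, and in 3 genes the 6 combination libraries did. A total of 3 reads over a group corresponds to 0.0238 CPM with AU-15330 and 0.0237 CPM with the combination, so falls of these genes are known only within wide counting intervals (which cover counting error only).

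The transcript with the highest control level was Trf, which encodes the plasma iron carrier transferrin. Trf measured 3069 CPM in the lowest DMSO library, 4514 CPM at the median and 7141 CPM in the highest. With cisplatin these values were 1445, 1748 and 3807 CPM. With AU-15330 they were 5.49, 6.15 and 7.62 CPM, and with the combination 24.5, 40.1 and 58.3 CPM. The 4 groups were thus ordered DMSO, cisplatin, combination, AU-15330, with overlap only between DMSO and cisplatin, and the means differed 727-fold between DMSO and AU-15330 and 59.6-fold between cisplatin and the combination. Per kilobase of exon Trf was also the highest of the 142 genes with DMSO (1386 CPM per kb), followed by Krt19 (905.4), Igfbp4 (540.1), Sprr1a (353.8) and Bgn (190.7).

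Igfbp4, which encodes a secreted protein that binds insulin-like growth factors, kept the highest absolute level with AU-15330. It ran from 1825 to 3161 CPM with DMSO (median 2388), from 40.7 to 53.6 CPM with AU-15330 (median 47.6), and from 57.0 to 99.8 CPM with the combination (median 61.4). Krt19, a keratin of simple epithelia and mesothelium, ran from 1288 to 2314 CPM with DMSO (median 1528) and from 4.30 to 14.8 CPM with AU-15330 (median 5.85). Bgn, the matrix proteoglycan biglycan, ran from 874.5 to 1519.8 CPM with DMSO (median 1067) and from 1.85 to 9.90 CPM with AU-15330 (median 2.15). In both Krt19 and Bgn a single AU-15330 library, replicate 1, was well above the other 5, and it was still far below every control library. Daam2, a formin-family regulator of actin and Wnt signaling, fell 29.4-fold in the means but from a high level, and 29.1 to 34.8 CPM were left with AU-15330.

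**Figure D2:**
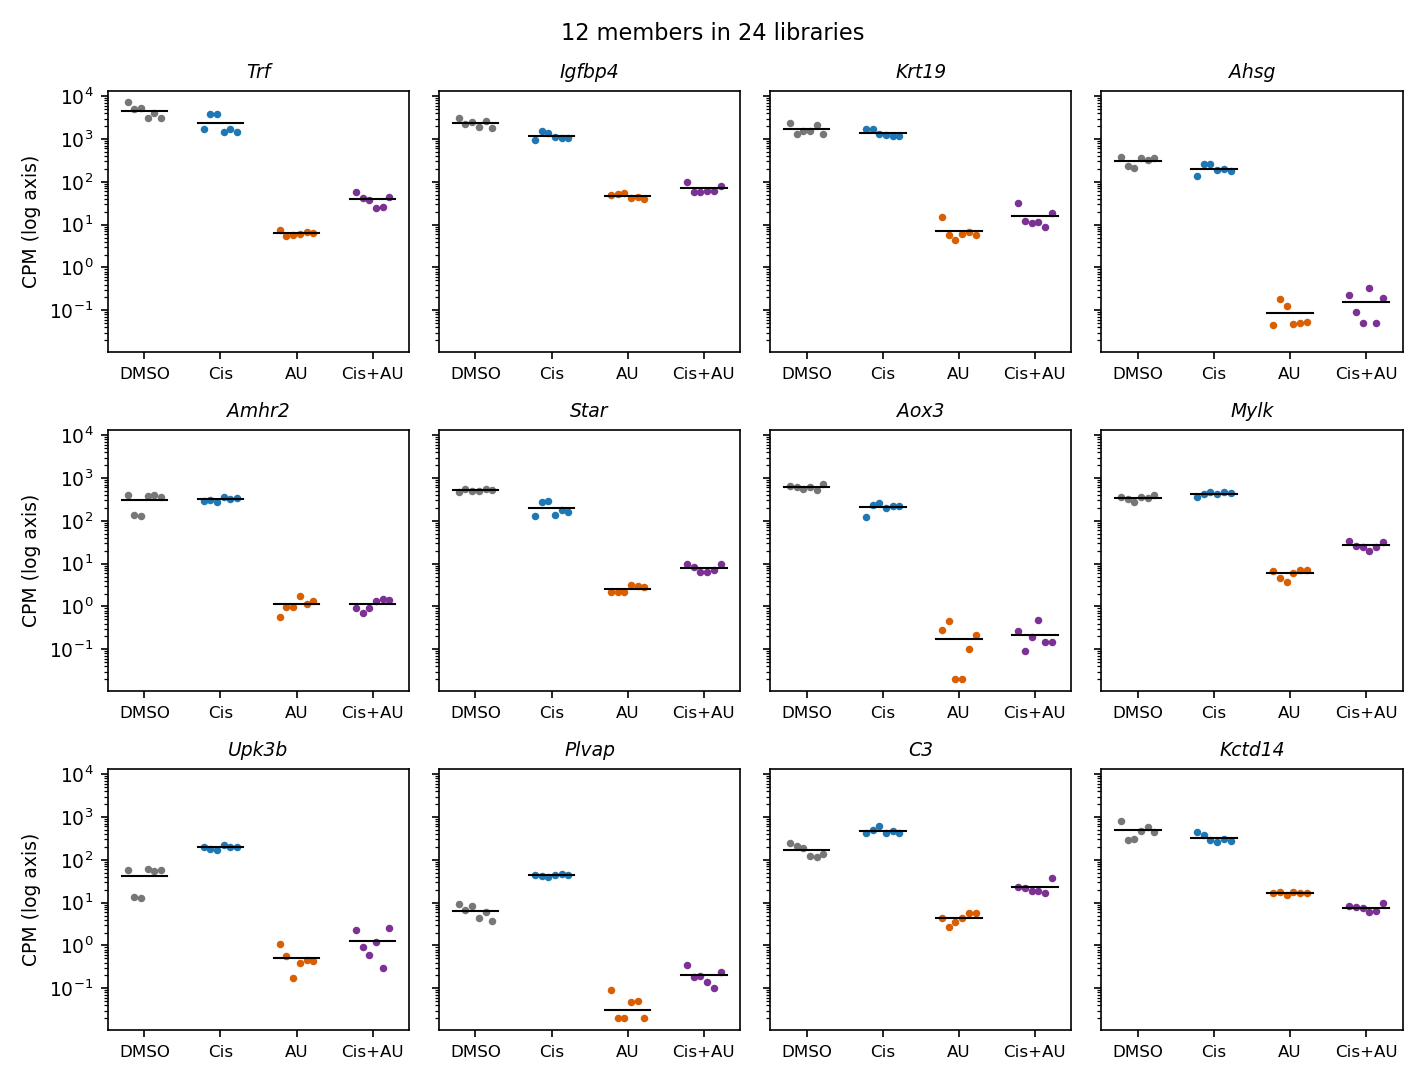
CPM (log axis) of 12 of the genes in each of the 24 libraries, 6 points per treatment (Cis, cisplatin; AU, AU-15330), in the order of replicates 1 to 6, with a bar at the group mean; libraries at 0 are drawn at 0.02 CPM. In every panel the 12 libraries with AU-15330 lie below the 12 without it, and Mylk, Trf and C3 are higher in the combination than with AU-15330 alone.

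Some of the transcripts have textbook roles, and 9 groups of them were put together after the values were seen, so their counts are a description. Many of the 142 genes are in none of these groups. The first group holds 11 secreted proteins of plasma, complement and clotting: Trf, Ahsg, Itih2, Hp, Apoa1, Masp1, C3, C1s2, F13a1, Lbp and Kng2. Most are known as products of the liver. Their median fall was 125-fold with AU-15330, and the 7 genes of the liver-type plasma protein list that met the level condition included 5 of the 142 (Trf, Ahsg, Itih2, Hp and Apoa1), or 71.4%, beside 142 of 9834 genes (1.44%) overall. This list was chosen with earlier results of these data known, so its share is a description. Ahsg, which encodes the mineral-binding plasma protein fetuin-A, ran from 205 to 373 CPM with DMSO (median 346). Only 11 reads were left in the 6 AU-15330 libraries together, at 0.0465 to 0.184 CPM, and 20 in the combination libraries. Hp, the hemoglobin-binding haptoglobin, ran from 24.6 to 106 CPM with DMSO and from 0 to 0.465 CPM with AU-15330.

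The second group holds 7 genes of the mesothelial surface and of gonadal somatic cells, the lineage relatives of ovarian surface epithelium. Krt19, Upk3b, Upk1b and Podxl are surface and cytoskeletal genes of mesothelium, and they are 4 of the 16 genes of the ovarian surface and mesothelial list that met the level condition. Upk3b, a uroplakin of the mesothelial membrane, ran from 12.98 to 61.0 CPM with DMSO (median 55.9) and from 0.170 to 1.07 CPM with AU-15330 (median 0.437). Amhr2, the receptor for anti-Müllerian hormone, ran from 132 to 405 CPM with DMSO (median 367), from 0.558 to 1.75 CPM with AU-15330 and from 0.722 to 1.46 CPM with the combination. Star, which carries cholesterol into mitochondria for steroid synthesis, ran from 476 to 553 CPM with DMSO and from 2.12 to 3.16 CPM with AU-15330. The seventh gene of the group, Nr0b2, encodes an orphan nuclear receptor that represses transcription, and its means were 26.2 CPM with DMSO and 0.298 CPM with AU-15330. Nr0b2 is not in the ovarian surface and mesothelial list. Transcription factors of that list differed among themselves between DMSO and AU-15330: the means were 796.3 and 631.7 CPM for Wt1, 471.6 and 534.5 CPM for Gata4, 111.8 and 157.4 CPM for Nr5a1, 13.2 and 101 CPM for Nr2f1, and 0.758 and 0.0155 CPM for Bnc1. Of the 18 markers of the list at 1 CPM or more with DMSO, 8 had means at least 2-fold lower with AU-15330 and 3 had means at least 2-fold higher, which were Nr2f1, the matrix gene Efemp1 (19.9 and 55.7 CPM) and the cadherin gene Cdh2 (105 and 231 CPM). Krt8 and Krt18, the keratins of the same filaments as Krt19, averaged 317.1 and 608.2 CPM with DMSO and 251 and 125.4 CPM with AU-15330.

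Contractile and sarcomere genes made up a group of 10. It holds the troponin genes Tnni1, Tnni3 and Tnnt1, the myosin-binding protein genes Mybpc3 and Mybphl, the M-band gene Myom3, Ky, the splicing factor gene Rbm20, Smtnl2, and Mylk, which encodes the kinase that activates smooth-muscle myosin. All were expressed at modest levels in these ovarian cells except Mylk, which ran from 278 to 396 CPM with DMSO (median 344) and from 3.70 to 7.21 CPM with AU-15330 (median 6.43). Tnni3, the inhibitory troponin of heart muscle, ran from 17.4 to 57.2 CPM with DMSO and from 0 to 0.320 CPM with AU-15330. Over the group the median fall was 84.5-fold with AU-15330.

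The detoxification enzymes Aox3, Aldh3a1, Gstm2, Gsta2, Gsta3, Ugt1a6a and Akr1cl formed a group of 7 with a median fall of 348-fold. Aox3, an aldehyde oxidase, ran from 518 to 706 CPM with DMSO (median 627) and from 0 to 0.461 CPM with AU-15330, where the 6 libraries together held 22 reads. Aldh3a1, an aldehyde dehydrogenase of cornea and stomach, ran from 189.6 to 504 CPM with DMSO and held 13 reads over the AU-15330 libraries. The authors' counting could have split reads of Gsta2, Gsta3 and Aox3 between similar genes, and Ugt1a6a shares exons with its neighbors, so values of these genes are less certain.

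The 8 genes of digestive and airway secretion had the highest median fall of the 9 groups, 1293-fold, with a range of 30.9-fold to 3679-fold, and for several of them it rests on 1 or 2 reads left. They include Pnliprp1, a pancreatic lipase relative, Pgc, the stomach pepsinogen C, Zg16, a gut lectin, Muc5b, an airway mucin, and Aqp5, a water channel of glands. Pnliprp1 ran from 6.74 to 47.96 CPM with DMSO and from 0 to 0.0497 CPM with AU-15330, a single read in 6 libraries. Its ratio of 3679 has a counting interval of 690.0 to 151837. Zg16 ran from 5.44 to 13.2 CPM with DMSO, with 1 read left in the AU-15330 libraries and 2 in the combination libraries, and Muc5b and Robo4 were left with 2 reads in each.

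The remaining 4 groups were smaller. They were the cornified-layer genes of skin (Sprr1a, Sbsn, Cdsn and Padi3), vascular endothelial genes (Plvap, Robo4, Ecscr, Edn1 and Spns2), blood-cell genes (Mpeg1, Blnk, Lsp1, Dok2 and Tlr7), and synaptic and neuronal genes (Bsn, Camk2b, Lgi3, Elfn2, Shisa8 and Faim2). Sprr1a, a precursor of the cornified envelope, ran from 221 to 335 CPM with DMSO and from 1.75 to 4.65 CPM with AU-15330. Plvap, which forms the diaphragms of endothelial pores, ran from 3.73 to 9.44 CPM with DMSO and from 0 to 0.0929 CPM with AU-15330. Of the endothelial markers, Pecam1 averaged 3.40 CPM with DMSO, 10.1 CPM with cisplatin and 0.473 CPM with AU-15330, and of the immune markers, Cd68 averaged 10.97, 9.16 and 35.7 CPM, while the other markers of both lists were under 1 CPM in every group mean. The median fall with AU-15330 was 99.4-fold, 71.4-fold, 47.0-fold and 52.9-fold in these 4 groups.

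**Figure D3:**
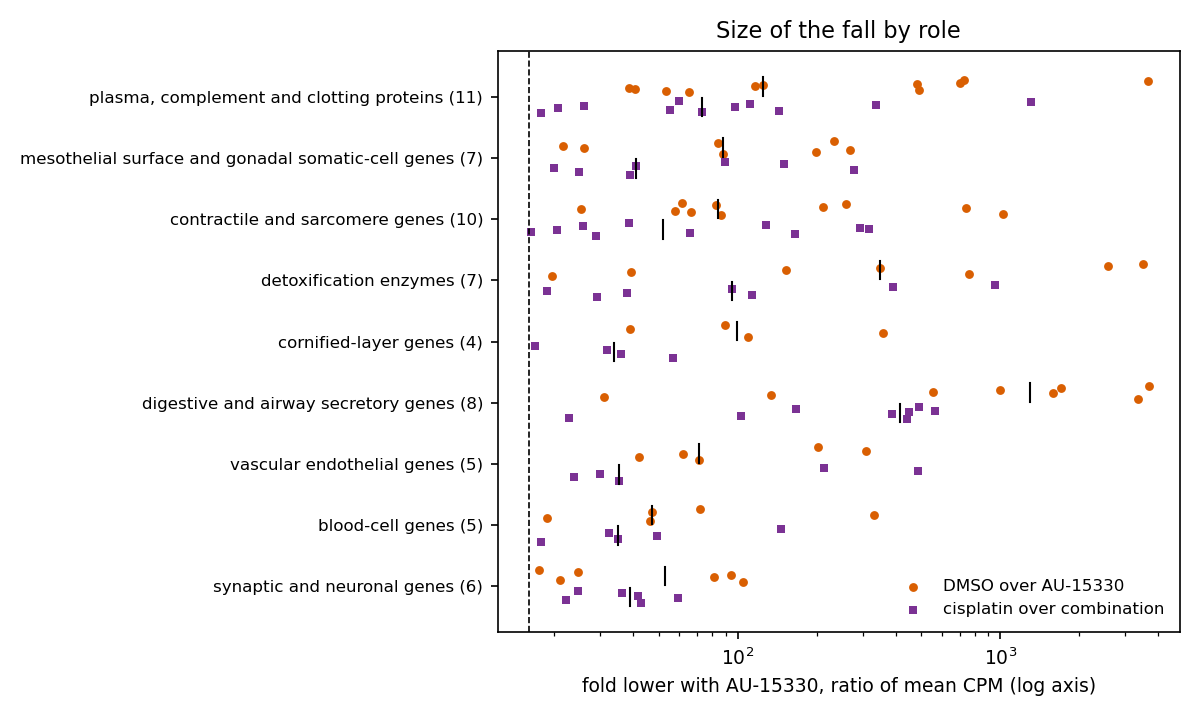
Fold by which each gene of 9 role groups was lower with AU-15330 (log axis), as DMSO over AU-15330 (orange circles) and cisplatin over the combination (purple squares); black bars are medians and the dashed line is the limit of 16 set by the rule. The digestive and airway group has the highest median for DMSO over AU-15330 (1293) and the blood-cell group the lowest (47.0).

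Signaling genes were spread over the 142. The list of growth factor, morphogen and guidance signals held 11 of them among its 103 genes at the level condition (10.7%), the matrix, protease and protease inhibitor list 9 of 67 (13.4%), the metabolic enzyme list 9 of 165 (5.45%), and the cytoskeleton and contractile list 5 of 45 (11.1%). Cytokines and their receptors gave 4 of 50 (8%), ion channels 3 of 35 (8.57%), transporters 3 of 193 (1.554%), G protein-coupled receptors 3 of 43 (6.98%), antigen, complement and interferon genes 3 of 41 (7.32%), and cell adhesion and junction genes 1 of 52 (1.92%), beside 1.44% of all genes at that level. Of 501 transcription factor genes at the level condition, 5 were among the 142 (0.998%): Foxo6, Foxs1, Nr0b2, Elf3 and Zbtb8b. The 24 genes of SWI/SNF subunits, the fibroblast marker Dcn and the immune marker Cd68 at that level gave none, and 6 of 228 unnamed or predicted genes did (2.63%). The lists are defined by symbols and are not complete, and 73 of the 142 genes are in none of them. They were chosen with earlier results of these data known, so these shares are a description.

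Among the signaling members, the semaphorin gene Sema4g, whose product guides axons and other migrating cells, ran from 199 to 342 CPM with DMSO and from 13.2 to 17.2 CPM with AU-15330. Pdgfb, a chain of platelet-derived growth factor, ran from 109 to 159 CPM with DMSO and from 1.62 to 3.81 CPM with AU-15330. Il1rn, the natural antagonist of the interleukin-1 receptor, ran from 114.7 to 193 CPM with DMSO and from 0.389 to 1.53 CPM with AU-15330. Cxcl17, a mucosal chemokine, ran from 53.4 to 87.0 CPM with DMSO, and 5 reads were left over the 6 AU-15330 libraries. Ano1, a calcium-activated chloride channel, ran from 243 to 471 CPM with DMSO and from 12.2 to 16.2 CPM with AU-15330. Among channel-related genes the residue thus differed widely, since Cacna2d2, a calcium channel subunit, ran from 32.9 to 123 CPM with DMSO and from 0.0461 to 0.279 CPM with AU-15330.

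In control cells the 142 genes varied more between replicates than other genes. The median coefficient of variation over the 6 DMSO libraries was 27.8% for them and 15.02% for the 9692 other genes at the level condition, and over the 6 cisplatin libraries it was 16.5% and 10.7%. DMSO replicate 1 was the highest of the 6 DMSO libraries in 59 of the 142 genes, and DMSO replicate 3 was the lowest in 45. For Amhr2 and Upk3b, DMSO replicates 2 and 3 lay apart below the other 4, as the plot of 12 genes by library shows. Gsta2 and Apoa1 split between DMSO replicates 1 to 3 and replicates 4 to 6. Replicates 1 to 3 held 39 to 76 reads of Gsta2, and replicates 4 to 6 held 384 to 543. For Apoa1 the order was reversed, with 349 to 487 reads and 88 to 111 reads. Whether these libraries differ in handling is not stated.

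The rule fixes the level with and without AU-15330, but it sets no direction between cisplatin and DMSO, nor between the combination and AU-15330. These comparisons were therefore tested with edgeR's quasi-likelihood test in a fit of all 24 libraries and 12941 genes that passed the low-count filter, with Benjamini-Hochberg adjustment over those genes and a threshold of 0.05. All 142 genes passed this filter, since all had reads in the DMSO and cisplatin libraries; on the 12 libraries with AU-15330 alone 69 of them passed and 73 did not.

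Cisplatin alone moved members in both directions. Of the 142 genes, 40 were higher and 42 were lower with cisplatin than with DMSO and 60 were not called, with a median log2 fold change of 0.04. Across all 12941 genes 26.0% were called higher and 25.7% lower, with a median of -0.0041, so the shares in the 142 genes (28.2% and 29.6%) were near the background. Without replicate 1, 46 were called higher and 39 lower, beside 3347 and 3479 of the 12945 genes of that fit.

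The rises with cisplatin were led by Plvap, Akr1cl, Upk3b and Shisa8. Plvap ran from 3.73 to 9.44 CPM with DMSO and from 40.0 to 46.1 CPM with cisplatin, with no overlap (log2 fold change 2.68 ± 0.17 (SE), edgeR adjusted p = 1.47e-12). Akr1cl, an aldo-keto reductase, ran from 3.19 to 15.5 CPM with DMSO and from 36.9 to 54.0 CPM with cisplatin (2.21 ± 0.28, edgeR adjusted p = 3.95e-07). Upk3b reached 172 to 227 CPM with cisplatin, above every DMSO library (2.12 ± 0.31, edgeR adjusted p = 2.69e-06). Upk1b, another uroplakin, and Podxl, a sialomucin of mesothelium, were also higher with cisplatin (log2 fold changes 1.76 and 1.05), and Krt19 was not called (log2 fold change -0.35, edgeR adjusted p = 0.257). Shisa8, an auxiliary subunit of glutamate receptors, ran from 7.32 to 20.4 CPM with DMSO and from 50.04 to 81.8 CPM with cisplatin. Plvap, Upk3b and Shisa8 had their highest levels with cisplatin, and the rule fixes their fall in the combination. There Plvap ran from 0.101 to 0.358 CPM, Upk3b from 0.302 to 2.52 CPM and Shisa8 from 1.59 to 4.16 CPM.

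The decreases were led by the noncoding gene 4930447F24Rik, Aox3, Star and Tspan1. Star ran from 132 to 297 CPM with cisplatin, below every DMSO library (-1.49 ± 0.16, edgeR adjusted p = 2.73e-08), and Aox3 ran from 126 to 265 CPM (-1.60 ± 0.16, edgeR adjusted p = 9.84e-09). 4930447F24Rik ran from 41.1 to 157 CPM with DMSO and from 11.8 to 42.4 CPM with cisplatin. It lies within the span of Bsn on the opposite strand and shares no annotated exonic bases with it, and Bsn averaged 8.90 CPM with DMSO and 9.99 CPM with cisplatin and was not called (log2 fold change 0.09, edgeR adjusted p = 0.737). Tspan1, a tetraspanin of epithelia, ran from 16.1 to 36.04 CPM with DMSO and from 4.92 to 12.5 CPM with cisplatin. By role, 6 of the 11 plasma and complement genes were lower with cisplatin and 2 were higher (C3 and Lbp), 5 of the 7 detoxification enzymes were lower and 1 higher (Akr1cl), and 3 of the 4 cornified-layer genes were lower, beside 25.7% of all genes called lower and 26.0% called higher. The groups were put together after the values were seen, and their counts are a description. Gsta2, one of the 5 enzymes, overlapped between the groups, from 2.22 to 28.4 CPM with DMSO and from 3.68 to 7.34 CPM with cisplatin. Its DMSO replicates 1 to 3 held 39 to 76 reads, under the 93 to 160 of the cisplatin libraries, and replicates 4 to 6 held 384 to 543. Its lower call thus rests on DMSO replicates 4 to 6, and it was lower with cisplatin in 3 of 6 same-numbered pairs. Of those plasma genes, Itih2 missed the threshold without replicate 4, 5 or 6 (edgeR adjusted p = 0.0529 to 0.108) and Masp1 without replicate 2 (edgeR adjusted p = 0.0851). Among the endothelial genes 3 of 5 were higher and none of the 5 was called lower. C3, the central complement component, ran from 116 to 252 CPM with DMSO and from 415 to 619 CPM with cisplatin (1.39 ± 0.20, edgeR adjusted p = 2.68e-06).

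Between the combination and AU-15330 alone, several genes with measurable residues were higher with the combination, Trf, Mylk and C3 among them. Of the 142 genes, 59 were called higher and 3 lower in the fit of 24 libraries, where 22.2% of the 12941 genes were called higher and 19.5% lower. Of these calls 19 higher and 1 lower were in the 73 genes that passed the filter only with the DMSO and cisplatin libraries counted in, so the counts are a description and their fold changes rest on few reads. The mean of the combination was above that of AU-15330 in 125 genes, and the median over the 142 genes was 0.660 CPM with the combination and 0.297 CPM with AU-15330. When only the 12 libraries with AU-15330 were fitted, 42 of the 69 genes that passed were called higher and 2 lower, where 27.4% of the 12035 genes of that fit were called higher and 27.1% lower. A gene could pass that filter through the combination libraries alone, so this count too is a description.

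Large and well-measured increases were those of Trf, Mylk, C3 and Bgn. Trf was higher in the combination (24.5 to 58.3 CPM) than with AU-15330 (5.49 to 7.62 CPM) with no overlap (log2 fold change 2.61 ± 0.29 (SE), edgeR adjusted p = 7.65e-08, higher in 6 of 6 pairs). Mylk ran from 19.9 to 34.2 CPM in the combination, against 3.70 to 7.21 CPM (2.16 ± 0.15, edgeR adjusted p = 5.05e-11). C3 ran from 16.8 to 37.9 CPM in the combination and from 2.72 to 5.77 CPM with AU-15330 (2.36 ± 0.24, edgeR adjusted p = 1.5e-08). Bgn ran from 8.34 to 30.7 CPM in the combination, which overlapped AU-15330 replicate 1 (2.27 ± 0.35, edgeR adjusted p = 1.19e-05). Star, Sema7a, Pdgfb and Il1rn were higher as well, with log2 fold changes of 1.58, 1.85, 2.25 and 2.36.

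The largest fitted increases were in 4 genes that did not pass the filter on the 12 libraries with AU-15330, and they are given by their reads alone. Pgc held 1 read over the AU-15330 libraries and 21 over the combination libraries, and Gm20744 held 1 and 15. Adamts14, a procollagen-processing protease, held 15 and 137 reads, and the RNA gene 4833415N18Rik held 9 and 69. Single combination libraries held 0 to 7 reads of Pgc and 0 to 4 of Gm20744. These 4 genes entered the fit only through the DMSO and cisplatin libraries, so no call is read from it. The decreases were in Kctd14, Daam2 and Gsta3. Gsta3 also did not pass the filter on the 12 libraries with AU-15330 and is given by its reads alone. It held 4 to 17 reads in an AU-15330 library and 4 to 8 in a combination library. Kctd14, a potassium-channel tetramerization domain gene, ran from 15.5 to 18.1 CPM with AU-15330 and from 6.14 to 9.58 CPM in the combination (-1.15 ± 0.20, edgeR adjusted p = 4.82e-05), and Daam2 ran from 29.1 to 34.8 CPM and from 22.1 to 25.4 CPM (-0.50 ± 0.08, edgeR adjusted p = 2.27e-05). Amhr2, Kank3 and Ano1 were not called, with log2 fold changes of 0.01, -0.09 and 0.22, and Aox3, which did not pass the filter on those 12 libraries, held 22 and 28 reads. Ano1 was still higher in the combination in 6 of 6 same-numbered pairs, and Amhr2 and Kank3 were in 3 of 6.

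**Figure D4:**
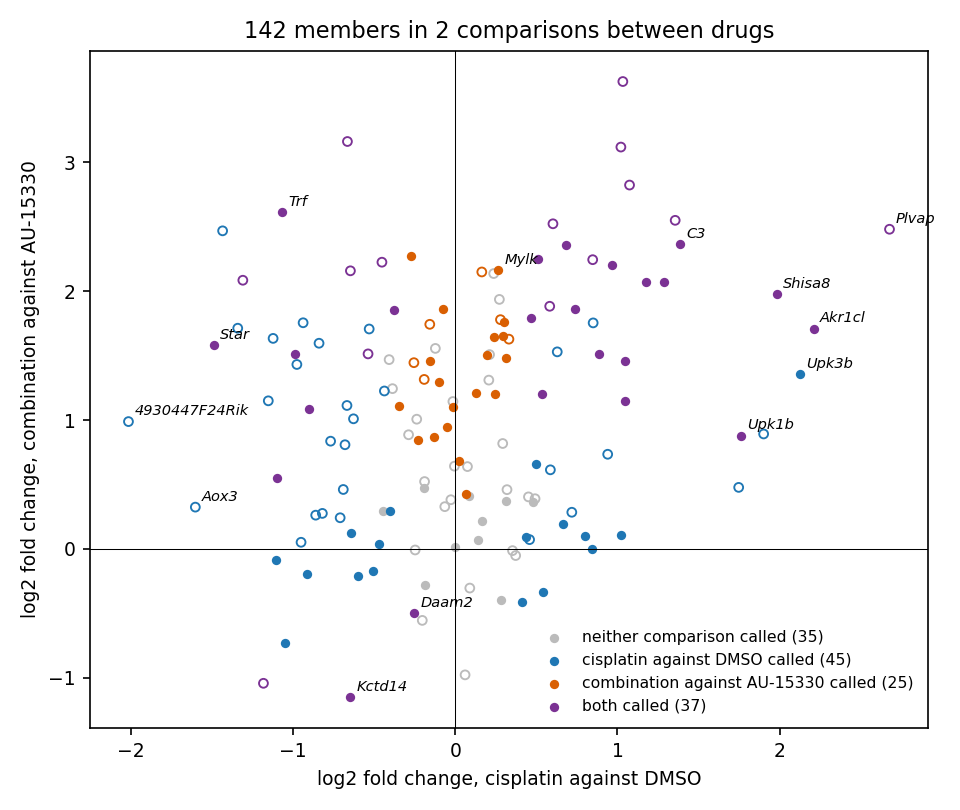
Log2 fold change of each of the 142 genes between cisplatin and DMSO (horizontal) and between the combination and AU-15330 (vertical), colored by which comparison passed an edgeR adjusted p of 0.05; open circles are the 73 genes that did not pass the low-count filter on the 12 libraries with AU-15330. The points spread on both sides of 0 on the horizontal axis (40 called higher, 42 lower) and lie mostly above 0 on the vertical axis (59 called higher, 3 lower). Of all 12941 genes tested, 26.0% were called higher and 25.7% lower on the horizontal axis, and 22.2% and 19.5% on the vertical axis.

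Some genes were called in both comparisons. A total of 23 genes were higher in both (16.2% of the 142, beside 11.2% of the 12941 genes tested), but 8 of them did not pass the filter on the 12 libraries with AU-15330 (Plvap, P2ry2, Pgc, Adamts14, 4833415N18Rik, Hephl1, Ramp1 and Slc13a2). The other 15 include C3, Upk1b, Shisa8, Il1rn, Nr0b2 and Pdgfb. The cisplatin call of Pdgfb was lost without replicate 4 (edgeR adjusted p = 0.0633) or replicate 6 (edgeR adjusted p = 0.0761). Another 11 were lower with cisplatin and higher with the combination (7.75%, beside 2.66% of all genes tested), and 5 of them did not pass that filter (Cdsn, Itih2, Lsp1, F2rl1 and Gm20744). The other 6 include Trf, Igfbp4, Star and Sprr1a. These counts are a description, and their difference from all genes was not tested. Igfbp4 was lower with cisplatin (965 to 1531 CPM, log2 fold change -1.10) and higher with the combination than with AU-15330 (log2 fold change 0.55). The 2 comparisons share no libraries.

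The sequences at the starts of these genes were compared with those of other genes, since the rule used no sequence. The CpG ratio is the number of CpG dinucleotides over the number that the C and G content would give by chance, and most vertebrate DNA has a low ratio because methylated CpG is lost over evolution, except in CpG islands. For 6 genes, the 150 bases before the start that the RefSeq promoter table uses (build GRCm38.p6), on the strand of the gene, are printed with each CG in capitals. Annotated starts differ: in GENCODE M21 the gene begins further upstream for Ahsg, Tnni3 and Cacna2d2, so that their stretches lie inside the gene span, and the stretch of Aox3 overlaps the first bases of its gene. Of these genes 5 stand for roles above (a plasma protein, a detoxification enzyme, a gonadal receptor, a mesothelial uroplakin and a cardiac troponin), and Cacna2d2 is the contrast with a CpG-rich start.
Ahsg, chr16:22891865-22892014, plus strand: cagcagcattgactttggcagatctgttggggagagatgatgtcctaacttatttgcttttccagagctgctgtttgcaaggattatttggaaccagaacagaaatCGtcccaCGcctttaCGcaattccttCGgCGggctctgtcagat
Aox3, chr1:58112986-58113135, plus strand: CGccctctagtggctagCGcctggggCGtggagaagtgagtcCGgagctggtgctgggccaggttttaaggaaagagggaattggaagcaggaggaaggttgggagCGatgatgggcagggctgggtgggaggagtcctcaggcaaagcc
Amhr2, chr15:102445217-102445366, plus strand: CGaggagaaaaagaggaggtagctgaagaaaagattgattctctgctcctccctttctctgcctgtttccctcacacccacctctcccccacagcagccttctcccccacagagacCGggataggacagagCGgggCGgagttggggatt
Upk3b, chr5:136038346-136038495, plus strand: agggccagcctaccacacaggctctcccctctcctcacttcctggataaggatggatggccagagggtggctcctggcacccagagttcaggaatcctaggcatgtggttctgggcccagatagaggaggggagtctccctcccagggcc
Tnni3, chr7:4522529-4522678, minus strand: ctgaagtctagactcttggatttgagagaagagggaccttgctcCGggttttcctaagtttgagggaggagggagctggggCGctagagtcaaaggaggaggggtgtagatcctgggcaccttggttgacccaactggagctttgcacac
Cacna2d2, chr9:107399730-107399879, plus strand: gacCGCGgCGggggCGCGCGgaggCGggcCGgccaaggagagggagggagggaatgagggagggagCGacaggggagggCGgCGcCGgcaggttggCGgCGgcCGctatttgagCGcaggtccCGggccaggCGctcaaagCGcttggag
These stretches hold 5, 5, 4, 0, 2 and 19 CG dinucleotides in the order printed. The promoter table had entries for 101 of the 142 genes, too few for a comparison over all of them, so the comparison used the first 200 bases of a transcript of each gene in the GENCODE M21 annotation, which covered all 142.

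Most of the 142 genes had a CpG-poor transcript start. The CpG ratio had a median of 0.358 (interquartile range 0.204 to 0.684) in the 142 genes and of 0.820 (0.630 to 0.969) in 9588 other genes at the level condition. It was under 0.6 in 99 of the 142 genes (69.7%, exact binomial 95% interval 61.5 to 77.1%) and in 22.3% of the others. The GC content differed less, with medians of 59.0% and 63.8%. Seen from the other side, 4.43% of the 2237 genes with a ratio under 0.6 and 0.574% of the 7493 with a higher ratio were among the 142. Over all genes at the level condition, the share with a ratio under 0.6 was 63.8% among the 221 genes at 1/16 or less with AU-15330, 40.1% among the 324 between 1/16 and 1/4, 24.4% between 1/4 and 1/2, 20.3% among the 7737 between 1/2 and 2, 28.5% among those 2-fold to 4-fold higher and 33.8% among the 151 over 4-fold higher. The share was thus lowest in genes that changed little and highest in those that fell most. In the other 43 of the 142 genes the ratio was 0.6 or higher.

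**Figure D5:**
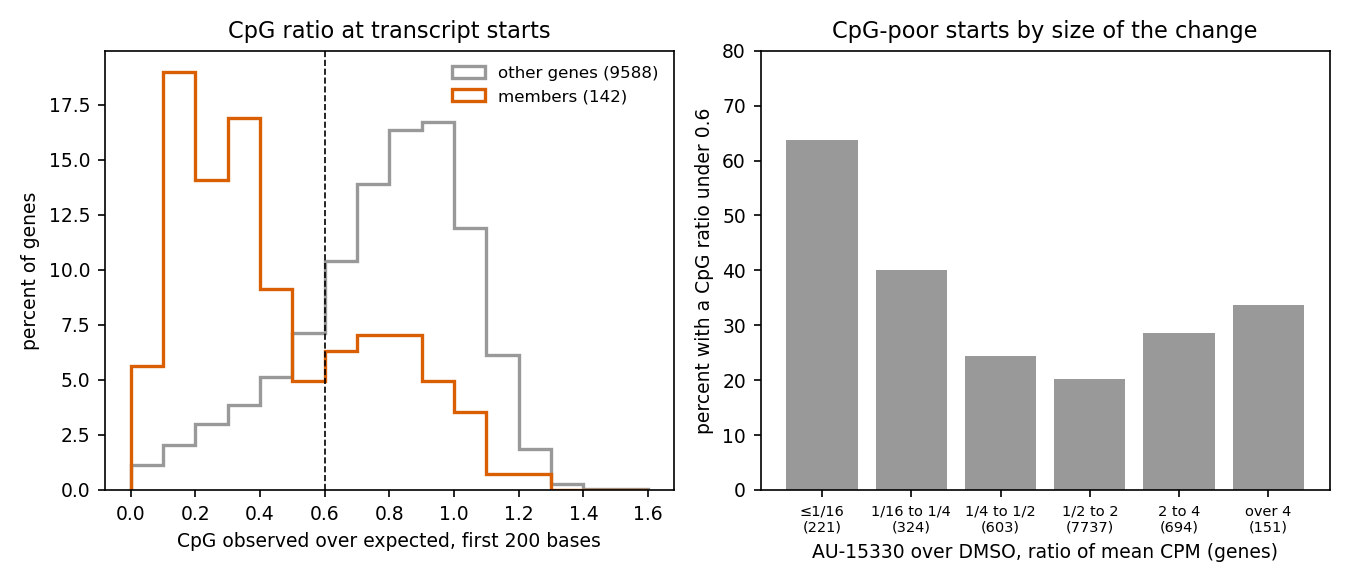
Left, percent of genes by CpG ratio in the first 200 bases of the transcript (horizontal, bins of 0.1) for the 142 genes (orange) and 9588 others (gray), with a dashed line at 0.6. Right, percent of genes with a ratio under 0.6 by the ratio of mean CPM between AU-15330 and DMSO, number of genes in brackets; the bar is tallest (63.8%) at 1/16 or less and shortest (20.3%) between 1/2 and 2.

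The 142 genes were spread over 19 autosomes and the X chromosome. They made up 2.69% of the level genes of chromosome 9 (15 of 557), 2.24% of chromosome 7 (16 of 715) and 0.640% of chromosome 10 (3 of 469). On GRCm38, Trf lies at chr9:103204001-103230444, Ahsg at chr16:22891277-22899449, Star at chr8:25806555-25815982 and Amhr2 at chr15:102445367-102454633. There were 4 pairs of neighboring protein-coding genes in which both were among the 142: Igfbp4 and Tns4 on chromosome 11, Htra3 and Sh3tc1 on chromosome 5, and Tnnt1 with Tnni3 and Sec1 with Ntn5 on chromosome 7. Tnnt1 and Tnni3 are a troponin pair, with the first ending at 4515975 and the second starting at 4518305 in RefSeq. Sec1 and Ntn5 overlap, so their reads may be shared. Of 140 places next to one of the 142 genes that were held by a gene at the level condition, 8 were held by another of them (5.71%), beside 1.44% overall. The other 132 neighbors had a median log2 ratio of AU-15330 to DMSO of -0.03, against 0.09 for the rest, and 10 of them (7.58%) were at 1/4 or less, against 4.20%.

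Gene models differed little in kind. Of the 142 genes 138 were protein-coding (97.2%), against 98.7% of the others, and the median exonic length was 3720 bases, against 4729.5. Fxyd3 shares 42.5% of its exonic bases with Lgi4 on the opposite strand and Cables1 shares 34.2% with Gm6277, and the use of strand in the authors' counting was not stated.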

How the data were processed

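RNA of 24 libraries (4 treatments, 6 replicates each) was analysed. The authors aligned the reads to mm10 and deposited raw read counts for 25229 gene symbols, without normalization, in 48 columns (2 lanes per library), of which 0 were unassigned and which were summed per library. The submitters' processing notes name STAR 2.7.1a and DESeq2 1.36.0. The counting tool, the annotation and the use of strand are not given in the sources used here. Library totals were 17592588 to 25260009 counts. Intervals and floors (3 counts) cover counting error only.

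CPM were computed as count over library total, and the members were selected as stated with Python 3.11.15 and pandas 2.3.3. The members, the gene lists, the rule for named genes and the tests were chosen with earlier results of these data known, and the role groups and the transcript-start measure were chosen after the data were seen. Comparisons of treatments used edgeR 4.0.16 in R 4.3.3 (filterByExpr, TMM, 1 mean per group, quasi-likelihood F test, 20 residual degrees of freedom, Benjamini-Hochberg), tested on simulated data, and DESeq2 1.42.0 served as an alternative. Genes named were the 20 with the highest DMSO level, the 4 largest called increases and decreases of each tested comparison, the 4 with most and the 4 with fewest reads left, the 4 on each side of the limit, and up to 4 members of each list; genes named otherwise were chosen after their values were seen. Same-numbered combination and AU-15330 libraries deviated together (correlation of deviations from the group means 0.101 to 0.483 in 6 of 6 pairs), and a block for the replicate number changed no count of calls there by over 1.5 times. Symbols matched the RefSeq gene table for 142 of 142 members, GENCODE M21 for 142, and the RefSeq promoter table (GRCm38.p6) for 101, or 71.1%. Promoter motifs were therefore not compared, and protein sequences were not analysed here. Replicates of a group differed by more than counting error in every pair. Some genes are not reported here.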

Additional observations from a re-analysis of the deposited data

Results flagged for a closer look

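For each named gene, the 6 libraries of a group were searched for a single library far from the other 5, by the gap to its nearest neighbor as a share of the range of the 6 against Dixon's 95% critical value. Of 218 groups with a median of 10 or more reads, 22 had such a library, where chance gives about 1 in 20, or 10.9. The genes were read in the same libraries and are not independent, and 14 of the 22 were a replicate 1. A search for single libraries does not find a group that splits, as the DMSO replicates did for Gsta2 and Apoa1. In DMSO it was always replicate 1, and always the highest: Aldh3a1 at 504.5 CPM against 189.6 to 254.3 in the others (share 0.7945), Tspan1 at 36.04 against 16.12 to 19.58 (0.8264), Il1rn at 193.0 against 114.7 to 132.3 (0.7748), Cxcl17 at 86.97 against 53.42 to 61.13 (0.7703), Slco2a1 at 10.4 against 5.025 to 6.306 (0.7618), and Aqp5, Fxyd3 and 4833415N18Rik with shares of 0.6694, 0.6557 and 0.6503.

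With AU-15330, replicate 1 was again the highest for Bgn (9.897 CPM against 1.85 to 2.83, share 0.8782), Pdgfb (3.81 against 1.618 to 2.045, 0.8053), Krt19 (14.82 against 4.3 to 6.762, 0.766) and Masp1 (2.788 against 1.061 to 1.541, 0.7216). Replicate 3 was lowest for Adgrg1 (share 0.6686) and replicate 4 for Gm867 (0.6298). With cisplatin, replicate 1 was lowest for Bgn (834.5 CPM against 1020 to 1098, 0.7064), replicate 2 highest for Tnni3 (0.6826), and replicate 3 highest for Slco2a1 (0.8312) and Muc5b (0.7472) and lowest for Akr1cl (0.6628). With the combination, replicate 1 was highest for Akr1cl (0.6391) and replicate 6 for C3 (37.89 CPM against 16.79 to 23.14, 0.699) and Adgrg1 (0.6591). No cause was tested.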

How the results depend on the processing

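The set itself followed the fold limit: 234 genes met a limit of 1/8 and 88 a limit of 1/32. In the other settings it stayed within 1.5 times of 142, with 201 genes at a level of 2 CPM, 112 at 10 CPM, 149 with TMM and 150 with DESeq2 scaling, 139 with medians, and 138 to 143 when a replicate was left out. With cisplatin against DMSO, 66 genes were higher and 72 lower in the 1/8 set, and 22 were higher in the 1/32 set. With the combination against AU-15330, 110 were higher and 7 lower in the 1/8 set, and 32 and 1 in the 1/32 set. Of all 12941 genes tested, 26.0% were called higher and 25.7% lower with cisplatin. For the combination against AU-15330 these shares were 22.2% and 19.5%. The sets differ in size, and the cause of the changed counts was not tested. Leaving out a replicate gave 36 to 46 higher and 36 to 39 lower with cisplatin, and 53 to 58 higher and 2 to 4 lower with the combination. Across all genes of those fits, 2911 to 3347 were higher and 2627 to 3479 lower with cisplatin. For the combination against AU-15330 they were 2360 to 2575 and 2141 to 3049. With the replicate number as a block, cisplatin against DMSO gave 49 higher and 40 lower, and the combination against AU-15330 gave 62 and 4. Across all 12941 genes the block fit gave 3702 and 3652, and 3229 and 2956. Same-numbered cisplatin and DMSO libraries were not paired by the data (correlations -0.0793 to 0.475, above 0.1 in 4 of 6, and 2 of 6 best with their own number). DESeq2's Wald test gave 40 and 39, and 73 and 3. Across all 12941 genes that test gave 3585 and 3280, and 2895 and 2874. The combination counts in this section include genes that passed the filter only through the DMSO and cisplatin libraries, so they are a description.

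Of 84 fold changes of named genes, none turned in direction over 996 combinations with an alternative, and 18 missed the threshold in at least 1, as Pnliprp1 did with cisplatin under the block (edgeR adjusted p = 0.0625). The CpG share was 71.1% with the first 100 bases and 69.5% with the first 300, both settings chosen after seeing the data. Promoter alternatives were not run, because the promoter table held too few of the 142 genes. Depth limits the values with AU-15330, where most genes had few reads.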

Other observations

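The levels of some further genes of the 142 are given here, most of them chosen after their values were seen. Kank3, a regulator of the actin cytoskeleton, averaged 465.9 CPM with DMSO and 7.41 CPM with AU-15330. Vnn1, a pantetheinase, averaged 130.1 and 2.03 CPM, Fblim1, a filamin-binding protein, 120.5 and 1.37 CPM, and Cited4, a coactivator, 104.8 and 1.18 CPM. S100a4, a calcium-binding protein of motile cells, averaged 45.0 CPM with DMSO, 116 CPM with cisplatin, 0.742 CPM with AU-15330 and 3.16 CPM with the combination, and was higher in both tested comparisons (log2 fold changes 1.29 and 2.07). Mpeg1, a pore-forming protein of macrophages and a member of the blood-cell group above, averaged 19.5 CPM with DMSO and 76.8 CPM with cisplatin, and 0.272 and 0.524 CPM when AU-15330 was added. Of the macrophage markers, Adgre1 and Csf1r stayed under 0.1 CPM in every group mean, and Cd68 averaged 10.97 CPM with DMSO, 9.16 CPM with cisplatin, 35.7 CPM with AU-15330 and 34.9 CPM with the combination.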
